A study of Drosophila melanogaster with 6 samples.

Results

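Neuroblasts are the stem cells of the Drosophila nervous system, and 10 genes that specify them or run their asymmetric division were followed here in embryos that carry an engineered form of Shaggy, the fly glycogen synthase kinase 3. They are the proneural genes ac, sc and l(1)sc, the neuroblast transcription factor genes ase, wor, sna and dpn, and the asymmetric division genes pros, mira and insc. They were taken by name from the deposited table or, for ac, which that table does not list, from the count table of 17493 gene identifiers. Of the 10 genes, 9 were among the 10526 genes tested, and ac had too few reads.

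Proneural proteins are basic helix-loop-helix (bHLH) transcription factors that let cells of the ectoderm take a neural fate, and Notch signalling then restricts that fate to single cells. The chosen neuroblast leaves the ectoderm and divides asymmetrically along an axis set by an apical complex that Inscuteable ties to the spindle. The adaptor Miranda gathers on the basal side and carries the transcription factor Prospero into the smaller daughter, the ganglion mother cell, where Prospero ends self-renewal and starts differentiation.

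The mutant embryos came from a homozygous line, sggisoD-CI-DS-SFS, in which 2 consensus caspase recognition sites of sgg were mutated. The control embryos came from the line sggisoD-DS-SFS, in which those sites were intact. Both lines carried, by CRISPR-Cas9 engineering of sgg, a DsRed tag at the N-terminus and a StrepII-Flag-StrepII tag inside the protein, so no untagged embryos were compared. Each line gave 3 independent collections of whole embryos aged 10 to 15 hours, and each line is 1 stock, so the caspase-site changes and any other difference between the stocks cannot be told apart.

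Mutant libraries held 15160388 to 15641368 counted reads and control libraries 12646077 to 19454630. Levels are given as CPM, read counts scaled to the size of the library with edgeR's TMM factors. The lowest level treated as seen, 3 reads, came to 0.196 to 0.199 CPM in mutant libraries and 0.153 to 0.236 CPM in control libraries. Total sgg RNA was 306 ± 2.77 CPM in mutant embryos and 302 ± 15.5 CPM in control embryos (SD, n = 3 each), a measure that covers all transcripts of the gene and cannot show the point changes.

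Across all tested genes, edgeR's quasi-likelihood test called 22.3% at an adjusted p under 0.05, made up of 8.67% lower and 13.7% higher in mutant embryos. Genes higher in mutant embryos were thus 61.1% of the calls, against 49.9% when counts were scaled by library size alone. Of the 9 tested neuroblast genes, 4 were called lower (wor, sna, pros and mira) and 0 higher. The number called lower was 2 without mutant collection 1 and 2 without mutant collection 3. The 3 mutant values all lay below the 3 control values for 5 of the 9 (the same 4 and sc), against 20.0% of all tested genes, and against 41.9% for a lack of overlap in either direction. The median log2 fold change of the 9 was -0.54, beside -0.01 for all tested genes. The members were chosen with earlier results of these data known, so these counts describe the genes and are no test of the group. In whole embryos, fewer neuroblasts and less of a transcript per neuroblast cannot be told apart. Nor can a different mix of tissues, or of ages within the 10 to 15 hours, be told apart from these.

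**Figure D1:**
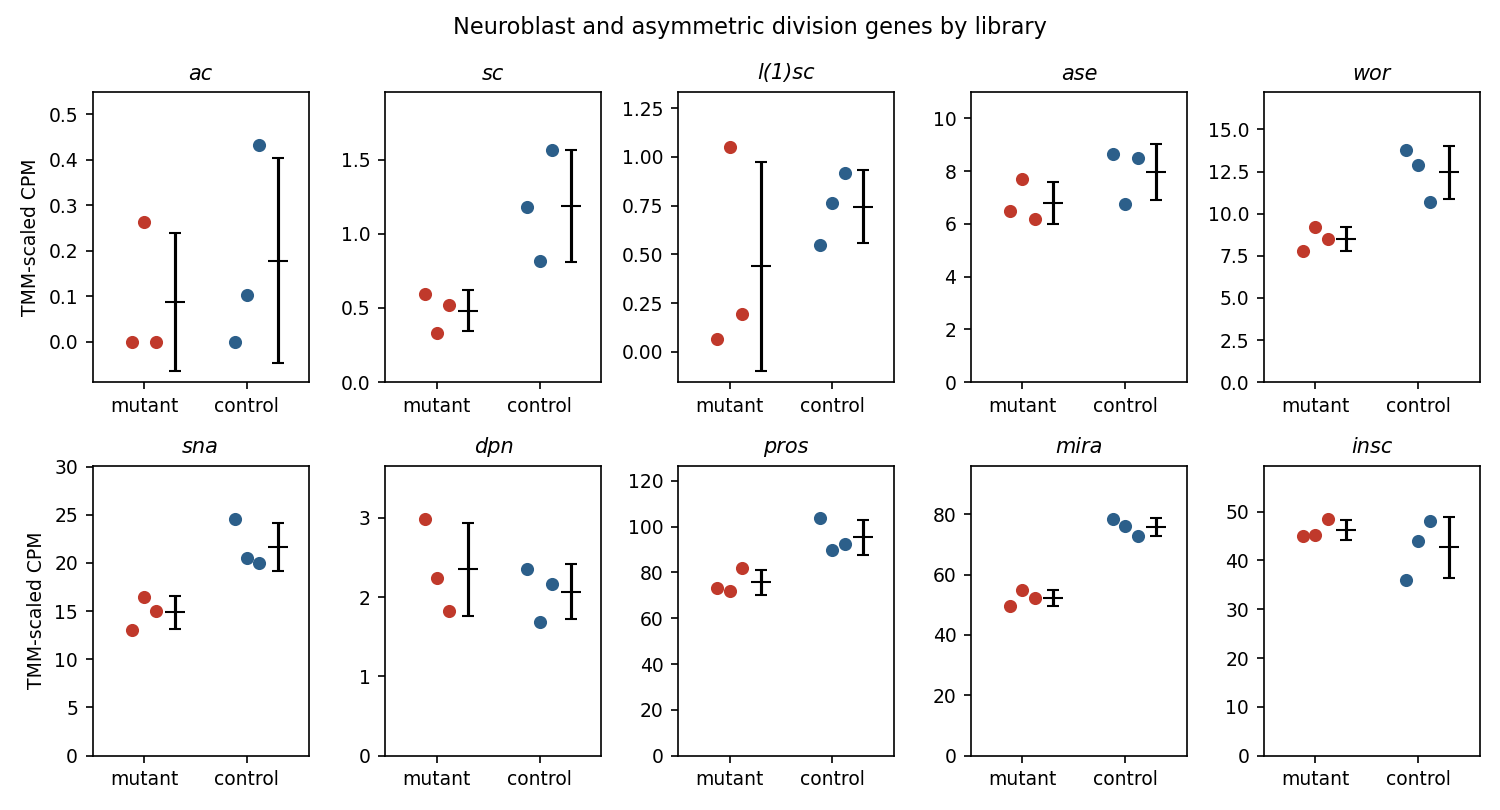
TMM-scaled CPM (vertical axes, linear, a separate scale per gene) of the 10 genes in 3 mutant libraries (red) and 3 control libraries (blue), drawn left to right as collections 1 to 3, with the mean and SD as black bars. For wor, sna, pros, mira and sc every mutant point lies under every control point, while the points of the other 5 genes overlap.

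The proneural genes of the achaete-scute complex were close to the limit of detection in these embryos, which are older than the stages when neuroblasts are first chosen. The gene ac (FBgn0000022), whose product is a proneural bHLH factor, had 0, 4 and 0 reads in mutant collections 1, 2 and 3, against 0, 2 and 8 reads in control collections 1, 2 and 3. In the libraries with 0 reads the limit that counting allows was 0.199 and 0.196 CPM in mutant collections 1 and 3 and 0.236 CPM in control collection 1. Reads of ac were therefore too few to compare the lines, and without the filter on low counts edgeR's test gave an adjusted p of 0.647.

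The gene sc (FBgn0004170), a proneural partner of ac, had 9, 5 and 8 reads in mutant collections 1, 2 and 3, against 15, 16 and 29 reads in the control collections. The corresponding levels were 0.597, 0.329 and 0.522 CPM in mutant embryos and 1.18, 0.817 and 1.57 CPM in control embryos. Every mutant value lay below every control value. The log2 fold change was -1.28 (standard error 0.40), the largest in size among the 9 tested members, yet edgeR's adjusted p of 0.0524 (0.0120 unadjusted) missed the threshold. It passed under 2 other scalings, with edgeR's adjusted p at 0.0488 with upper-quartile scaling and 0.0475 with library size alone. These were the only 2 of 13 alternatives in which sc passed. Its adjusted p was 0.113 by DESeq2's test and 0.0733 by limma-voom.

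The gene l(1)sc (FBgn0002561), the third proneural gene of the complex, had 1, 16 and 3 reads in mutant collections 1, 2 and 3, against 7, 15 and 17 reads in the control collections. Mutant collection 2 thus stood with the control libraries, while the other mutant collections were at or under 3 reads. The log2 fold change of -0.78 (standard error 0.72, 95% interval -2.42 to 0.86) was not called (edgeR adjusted p 0.476). Without mutant collection 2 it was -2.46 (edgeR adjusted p 0.0405), and without mutant collections 1 and 3 in turn it was -0.29 and -0.44. By limma-voom on all libraries it was -1.42 (adjusted p 0.199).

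The gene ase (FBgn0000137) is the member of the complex that acts in the neuroblast itself, and it was the best counted of the complex. Its levels were 6.50, 7.70 and 6.19 CPM in mutant collections 1, 2 and 3, and 8.65, 6.74 and 8.49 CPM in control collections 1, 2 and 3. The ranges overlapped, since mutant collection 2 lay above control collection 2. For ase the log2 fold change was -0.22 (standard error 0.16, 95% interval -0.59 to 0.15; edgeR adjusted p 0.365). This interval leaves room for a fall as large as that of wor or sna.

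These genes lie together near the tip of the X chromosome. By Ensembl release 115 for the BDGP6 assembly, used for every position in the text, ac spans 370031 to 370947, sc 396060 to 397497, l(1)sc 409721 to 410817 and ase 460747 to 463176, all on the forward strand. The end of ase is 2171 kb from the start of sgg on the same chromosome. From 20 kb before ac to 20 kb after ase, 15 genes were tested, of which 2 were called higher and 0 lower in mutant embryos, a share close to the 13.7% called higher among all tested genes, and their median log2 fold change was 0.01. The genes called higher were CG43181 and lncRNA:yar, the noncoding RNA between y and ac. The RNA yar was at 7.04 CPM in mutant embryos and 3.66 CPM in control embryos, a log2 fold change of 0.92 (edgeR adjusted p 0.0202). The estimates for sc, l(1)sc and ase were negative, while those of Cyp4g1 (0.01) and ebo (0.01), which neighbour ase, were near 0. Negative estimates were not confined to the complex. Those of lncRNA:CR44753 (-0.69), CR18166 (-0.56), CR18275 (-0.35) and CG32816 (-0.17) were negative too and not called, and the remaining tested genes of the window had positive estimates.

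The related zinc-finger genes wor and sna were lower in mutant embryos by nearly the same amount. Worniu and Snail are repressors of the Snail family that act with Escargot in neuroblasts, where they are needed for asymmetric division, and Snail is also known for specifying the mesoderm earlier in development. The gene wor (FBgn0001983) had 117, 140 and 130 reads in mutant collections 1, 2 and 3, against 175, 253 and 198 in the control collections. Its levels were 7.77, 9.21 and 8.47 CPM in mutant embryos and 13.8, 12.9 and 10.7 CPM in control embryos. The groups did not overlap, and the lowest control library was collection 3. This gave a log2 fold change of -0.55 (standard error 0.14), a change of -31.7% (edgeR adjusted p 0.0245).

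That call was the least stable of the 4. It was lost without mutant collection 1 (edgeR adjusted p 0.0686), without mutant collection 3 (0.0663), without control collection 1 (0.0505) and without control collection 2 (0.0709), while the estimate stayed between -0.66 and -0.48 across all alternatives.

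The gene sna (FBgn0003448) had 197, 251 and 230 reads in mutant collections 1, 2 and 3, against 312, 402 and 370 in the control collections. Its levels were 13.1, 16.5 and 15.0 CPM in mutant embryos and 24.5, 20.5 and 20.0 CPM in control embryos. The groups did not overlap, with control collection 1 highest and mutant collection 1 lowest. The log2 fold change was -0.54 (standard error 0.12), a change of -31.2% (edgeR adjusted p 0.0168). The call was lost without mutant collection 3 (edgeR adjusted p 0.0512).

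Both genes lie on the reverse strand of 2L, wor at 15423297 to 15425580 and sna at 15476593 to 15478260, with 51.0 kb between them. The third Snail family gene of this cluster, esg, lies at 15333866 to 15336138, 87.2 kb from wor. Its level was 34.6 ± 1.74 CPM in mutant embryos and 47.4 ± 6.89 CPM in control embryos (SD, n = 3 each), which gave a log2 fold change of -0.45 (edgeR adjusted p 0.0195). From the start of esg to 20 kb after sna, these 3 were the only genes tested. All 3 were called lower, against 8.67% of all tested genes, and no other gene there shows how the region behaved. The esg call was lost without mutant collection 1 (edgeR adjusted p 0.0585) and without mutant collection 3 (0.0618). A Snail family gene outside the cluster, scrt, a pan-neural gene, was at 150 CPM in mutant embryos and 159 CPM in control embryos and was not called (log2 fold change -0.08, edgeR adjusted p 0.510).

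The gene dpn (FBgn0010109, 2R, 8228971 to 8232330, reverse strand) encodes a bHLH repressor that is a common marker of neuroblasts and keeps them self-renewing. It had 45, 34 and 28 reads in mutant collections 1, 2 and 3, against 30, 33 and 40 reads in the control collections. Its levels were 2.99, 2.24 and 1.83 CPM in mutant embryos and 2.36, 1.68 and 2.16 CPM in control embryos, and the ranges overlapped. Its log2 fold change was 0.19 (standard error 0.28, 95% interval -0.44 to 0.83; edgeR adjusted p 0.661). Without mutant collection 1 the estimate was -0.031. The interval held no change and a fall of the size seen for pros, but not falls of the size estimated for wor, sna and mira. An antisense RNA overlaps 1207 bp of the 2036 bp of dpn exons and had 0 reads in all libraries. The strand setting of the counting is not given, so whether reads there were left out of the dpn count cannot be told.

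The genes of the basal cargo, mira and pros, were both lower in mutant embryos. Miranda is the coiled-coil adaptor that holds Prospero, Brat and Staufen at the basal cortex. The gene mira (FBgn0021776, 3R, 19931799 to 19935120, reverse strand) had 746, 834 and 799 reads in mutant collections 1, 2 and 3, against 999, 1488 and 1344 in the control collections. Its levels were 49.5, 54.9 and 52.1 CPM in mutant embryos and 78.5, 76.0 and 72.6 CPM in control embryos. The highest mutant library lay well below the lowest control library. The log2 fold change was -0.54 (standard error 0.07, 95% interval -0.70 to -0.38), a change of -31.1% (edgeR adjusted p 0.00201). The call held under each of the 14 alternatives run, with estimates from -0.58 to -0.51.

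The gene pros (FBgn0004595, 3R, 11328480 to 11407627, forward strand) encodes a homeodomain factor that neuroblasts make and ganglion mother cells inherit, and it is also known from glia and sensory organ cells. It had 1100, 1091 and 1257 reads in mutant collections 1, 2 and 3, against 1321, 1756 and 1706 in the control collections. Its levels were 73.01, 71.8 and 81.9 CPM in mutant embryos and 104, 89.6 and 92.2 CPM in control embryos, with no overlap. For pros the log2 fold change was -0.33 (standard error 0.08, 95% interval -0.52 to -0.14), a change of -20.6% (edgeR adjusted p 0.0239). The call was lost without mutant collection 1 (edgeR adjusted p 0.0663) and without mutant collection 2 (0.0670).

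The apical adaptor gene insc (FBgn0011674, 2R, 20821262 to 20836028, reverse strand) was not called in either direction. Inscuteable links the Par complex to the spindle regulators Pins and Galphai and so orients the division. The gene had 677, 686 and 745 reads in mutant collections 1, 2 and 3, against 457, 861 and 891 in the control collections. Its levels were 44.9, 45.1 and 48.6 CPM in mutant embryos and 35.9, 44.0 and 48.2 CPM in control embryos. The mutant values were close together and lay within or just above the control range, in which collection 1 was low. For insc the log2 fold change was 0.11 (standard error 0.11, 95% interval -0.13 to 0.35; edgeR adjusted p 0.496). Exons of insc share 359 bp with sktl on the same strand, a gene with 3370 reads over the mutant libraries and 3835 over the control libraries, so reads there cannot be assigned to one gene by strand.

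**Figure D2:**
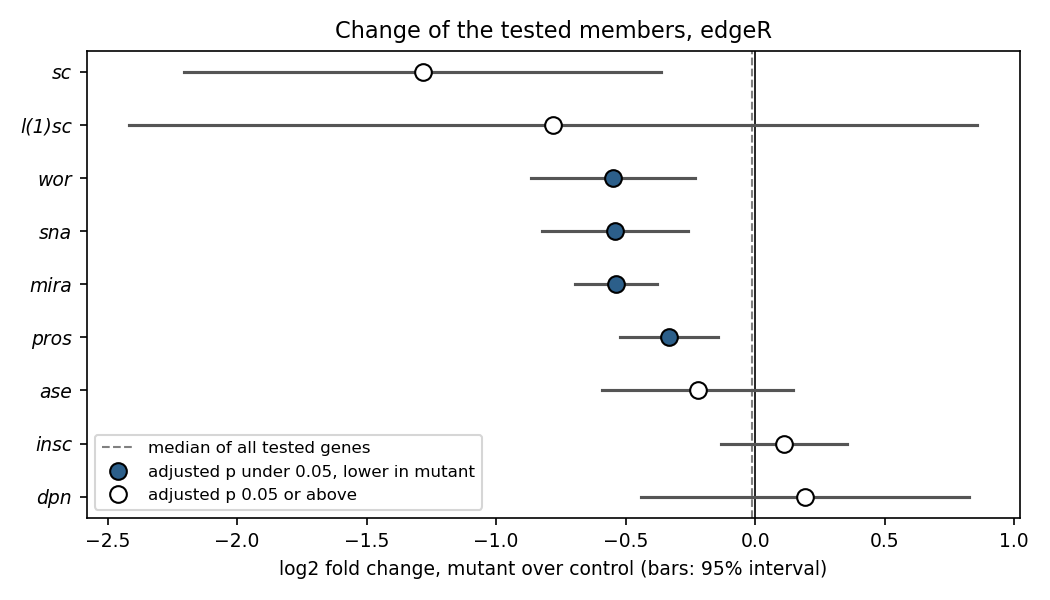
Log2 fold change, mutant over control (horizontal axis), of the 9 tested genes by edgeR, with 95% intervals as bars. The genes called lower (blue) are wor, sna, mira and pros, at -0.55, -0.54, -0.54 and -0.33, and the intervals of sc and l(1)sc are the widest.

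Ratios within a library do not depend on scaling, and a few were set side by side after the values were seen, so they carry no test. There were 1.10, 1.22 and 1.07 mira reads for each insc read in mutant collections 1, 2 and 3, against 2.19, 1.73 and 1.51 in control collections 1, 2 and 3. The ranges did not overlap, so the basal adaptor transcript was lower in mutant embryos relative to the apical one. The ratio of sna to wor reads was 1.68, 1.79 and 1.77 in mutant collections, against 1.78, 1.59 and 1.87 in the control collections, and the ratio of mira to wor reads was 6.16 ± 0.21 in mutant and 6.13 ± 0.58 in control collections (SD, n = 3 each). Both pairs of ranges overlapped. The ratio of pros to mira reads was 1.47, 1.31 and 1.57 in mutant collections and 1.32, 1.18 and 1.27 in control collections, where the lowest mutant value fell just inside the control range.

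**Figure D3:**
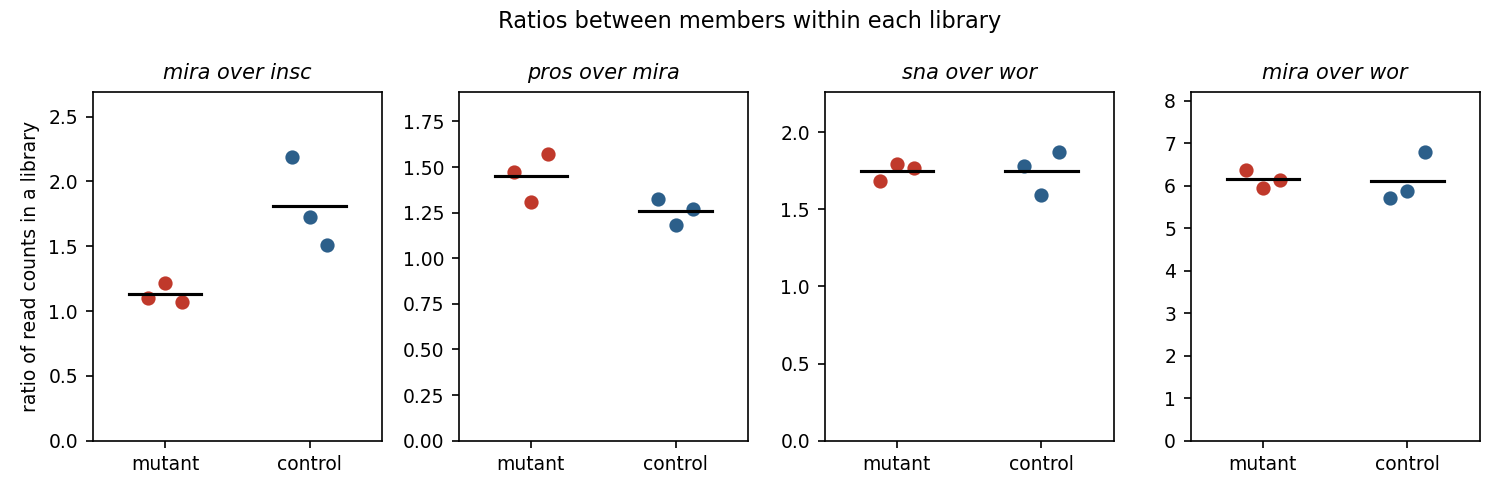
Ratio of the read counts of 2 genes within each library (vertical axes, linear from 0), for 3 mutant libraries (red) and 3 control libraries (blue), with means as black lines. Only the ratio of mira to insc, at 1.13 on average in mutant and 1.81 in control libraries, has no overlap among the 4 ratios drawn.

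The 10 genes spanned a wide range of levels per kilobase (kb) of summed exon. In mutant embryos mira was highest at 15.7 CPM per kb, followed by insc (11.9), sna (8.91), wor (3.82), pros (3.04), ase (2.80), dpn (1.15), l(1)sc (0.40), sc (0.34) and ac (0.10). In control embryos mira stood at 22.8 CPM per kb, followed by sna (13.0), insc (11.0), wor (5.61), pros (3.83), ase (3.27), dpn (1.02), sc (0.83), l(1)sc (0.68) and ac (0.19). The ranges of neighbours in this order overlapped for pros and ase in mutant embryos and for sna and insc in control embryos. From dpn downwards they overlapped at every step, except between l(1)sc and ac in control embryos. The summed exons of pros come to 24892 bp over all its transcripts, more than a single transcript may hold, so its level per kb is a low estimate. The mean level per kb of mira stood at the 64.6th percentile of tested genes, that of sna at the 47.1st and that of sc at the 3.11th.

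Several genes shared their order over the collections of a line. Among control collections, number 1 was the highest for ase, wor, sna, dpn, pros and mira and the lowest for insc. Among mutant collections, number 2 was the highest for l(1)sc, ase, wor, sna and mira, and number 3 was the highest for pros and insc. Over the 6 libraries, the gene of the other lists whose log2 CPM followed wor, sna and mira most closely was E(spl)m7-HLH, with Pearson's r of 0.98, 0.99 and 0.98, and pon was closest to pros (0.97). The closest genes to the other tested members were twi to sc (0.94), knk to ase (0.94), obst-A to insc (0.89), ct to l(1)sc (0.88) and iav to dpn (0.57). These r values are a description over 6 points that fall into 2 lines and share libraries, taken as the highest of 105 genes.

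The 6 lists of neural and division genes together hold 58 genes, of which 55 were tested, 13 called lower and 4 called higher in mutant embryos, with a median log2 fold change of -0.19. Among all tested genes 8.67% were called lower and 13.7% higher.

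Other neuroblast factors were called lower in 4 of 6 cases, with a list median of -0.44. The temporal factor gene cas was at 46.5 ± 4.25 CPM in mutant embryos and 67.0 ± 1.74 CPM in control embryos (SD, n = 3 each), which gave a log2 fold change of -0.53 (edgeR adjusted p 0.00359). The zinc-finger gene nerfin-1, expressed in neural precursors and young neurons, was at 34.6, 31.7 and 33.2 CPM in mutant collections 1, 2 and 3, against 57.6, 45.2 and 41.6 CPM in the control collections. Its log2 fold change was -0.53 (edgeR adjusted p 0.0159). The zinc-finger gene klu, which acts in neural precursors, fell by 0.43 on the log2 scale (edgeR adjusted p 0.0265). The fourth was esg, described above. The call of cas held under all 14 alternatives, that of nerfin-1 was lost without mutant collection 3 (edgeR adjusted p 0.0514), and that of klu was lost without mutant collection 1, 2 or 3 (0.0675, 0.0530 and 0.0777). The temporal factor gene grh was not called (log2 fold change -0.18, edgeR adjusted p 0.112).

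Among 11 other proneural and neuroectoderm factors, 8 were tested, 2 were called lower and 0 higher, with a median of -0.36. The bHLH gene tap was at 16.7 ± 0.95 CPM in mutant embryos and 23.6 ± 4.83 CPM in control embryos, and neur, the ubiquitin ligase that activates Delta, at 24.1 ± 1.96 CPM in mutant embryos and 30.6 ± 2.55 CPM in control embryos (SD, n = 3 each). Their log2 fold changes were -0.49 and -0.34, with adjusted p of 0.0463 and 0.0369 in edgeR's test. The call of tap was lost in 6 of 14 alternatives, which were limma-voom and leaving out any mutant collection or control collection 1 or 2, with adjusted p up to 0.121 by edgeR without mutant collection 3. That of neur was lost in 4, without mutant collection 2 or 3 or control collection 1 or 2, with adjusted p up to 0.105 by edgeR. The proneural gene cato was too rare for the filter. It had 3, 1 and 1 reads in mutant collections, against 7, 17 and 15 reads in control collections, and without the filter edgeR's test gave an adjusted p of 0.0176.

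Of the 11 partners and repressors of proneural proteins, 1 was called lower and 1 higher, with a median of -0.28. The Notch-activated repressor gene E(spl)m7-HLH was at 12.4, 15.1 and 14.5 CPM in mutant collections 1, 2 and 3, against 21.9, 20.5 and 18.6 CPM in the control collections, a log2 fold change of -0.54 (edgeR adjusted p 0.0127). For 5 of the 7 E(spl) bHLH genes of the list the mutant values all lay below the control values, against the 20.0% of all tested genes, although 1 of the 7 was called. The bHLH repressor gene h went the other way, at 42.8 ± 2.93 CPM in mutant embryos and 30.9 ± 3.32 CPM in control embryos (SD, n = 3 each), which gave a log2 fold change of 0.47 (edgeR adjusted p 0.0111). The gene da, the common bHLH partner of the proneural proteins, was at 97.2 CPM in mutant embryos and 96.0 CPM in control embryos, and its log2 fold change of 0.02 was not called (edgeR adjusted p 0.882).

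In the basal cargo list, 3 of 8 genes were called lower and 0 higher, with a median of -0.16. The gene pon, whose product anchors Numb at the basal cortex, was at 9.82, 10.1 and 11.2 CPM in mutant collections 1, 2 and 3, against 21.3, 16.0 and 14.5 CPM in the control collections. Its log2 fold change of -0.73 (edgeR adjusted p 0.0134) was the largest of the list. The gene jar, for the myosin VI that moves Miranda, was at 259 ± 18.0 CPM in mutant embryos and 333 ± 16.5 CPM in control embryos (SD, n = 3 each), which gave a log2 fold change of -0.36 (edgeR adjusted p 0.0101). The gene brat, a translational repressor that travels with Miranda, changed by -0.29 on the log2 scale (edgeR adjusted p 0.0170), a call lost without mutant collection 3 (0.0605) and without control collection 2 (0.0517). The gene numb itself was at 83.7 CPM in mutant embryos and 86.5 CPM in control embryos and was not called (edgeR adjusted p 0.633).

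In the apical polarity and spindle list, 3 of 12 genes were called higher and 0 lower, with a median of -0.06. With library size alone, and likewise without control collection 1, 2 were called higher and 1 lower. Without mutant collection 2, 3 were called higher and 1 lower. Without mutant collection 1, mutant collection 3 or control collection 2, 1 was called higher and 0 lower. The genes called higher were l(2)gl (959.5 ± 52.9 CPM in mutant and 764 ± 22.8 CPM in control embryos), scrib (597 ± 58.7 and 424 ± 62.9 CPM in mutant and control embryos) and aPKC (132 ± 12.0 and 107 ± 6.30 CPM in mutant and control embryos; SD, n = 3 each). Their products set polarity in epithelia, the first 2 as basolateral proteins and the last as the apical kinase. Their log2 fold changes were 0.33, 0.49 and 0.29, with adjusted p of 0.00774, 0.0185 and 0.0357 in edgeR's test. The call of aPKC was lost in 6 of 14 alternatives, which were library size alone and leaving out any library but mutant collection 2, with edgeR's adjusted p up to 0.114 without mutant collection 1, and that of scrib without mutant collection 1 (0.0802), mutant collection 3 (0.0780) or control collection 2 (0.0580). The genes baz, pins and mud, which act with insc, were not called, with log2 fold changes of -0.02, -0.10 and -0.28.

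Of 10 cell division genes, 3 were called lower and 0 higher, with a median of -0.18. The gene dap, for the cyclin-dependent kinase inhibitor that stops division, was at 62.1 ± 3.77 CPM in mutant embryos and 96.6 ± 14.8 CPM in control embryos, and stg, for the phosphatase that triggers mitosis, at 66.6 ± 2.42 CPM in mutant embryos and 87.8 ± 6.19 CPM in control embryos (SD, n = 3 each). Their log2 fold changes were -0.64 and -0.40, with adjusted p of 0.00632 and 0.00701 in edgeR's test. The cyclin gene CycE changed by -0.40 (edgeR adjusted p 0.0319), a call lost in every fit without 1 library but that without control collection 1, with edgeR's adjusted p up to 0.0926 without mutant collection 2. The mitotic genes CycA, CycB, CycB3, polo and aurA were not called, with log2 fold changes of -0.16, 0.08, -0.02, 0.05 and -0.37 and standard errors of 0.15, 0.26, 0.19, 0.30 and 0.24.

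**Figure D4:**
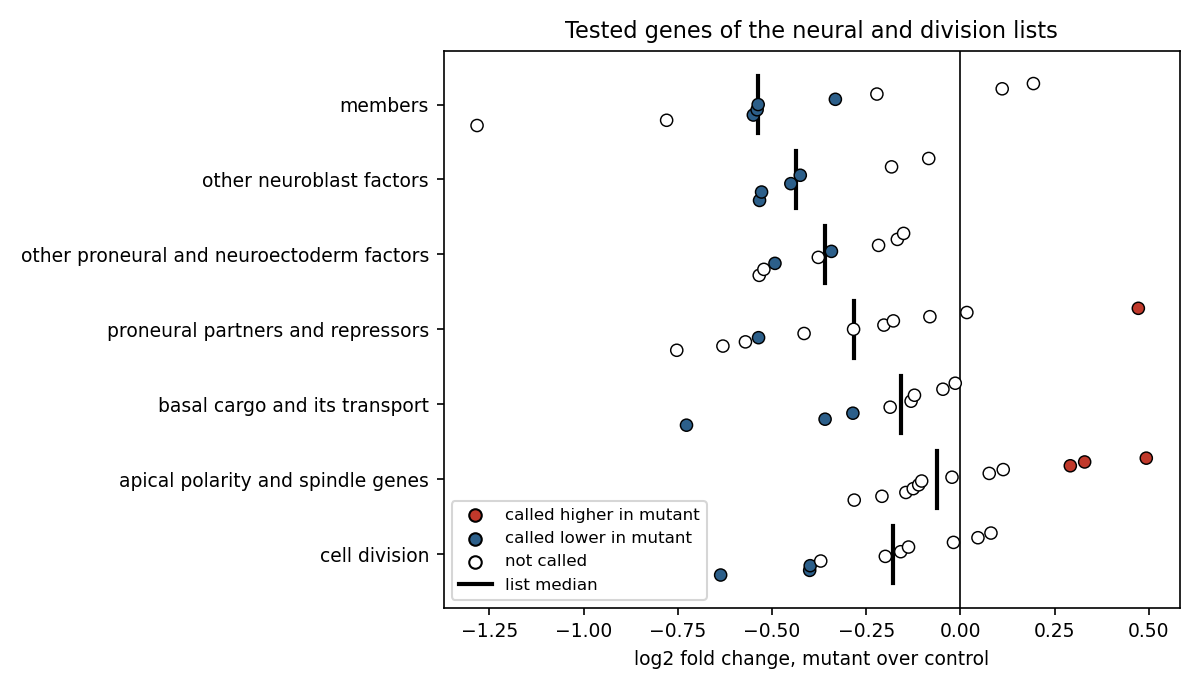
Log2 fold change, mutant over control (horizontal axis), of the tested genes of the neuroblast set (members, top row) and of 6 lists of neural and division genes, 1 point per gene, spread vertically for legibility. Blue points were called lower, red points higher and white points were not called, and black bars are medians, from -0.54 for the members to -0.06 for the apical list.

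Some markers of other cells also differed between the lines. Among all tested genes 22.3% were called, made up of 8.67% lower and 13.7% higher in mutant embryos. Summed neuron markers were at 2385 to 2472 CPM in mutant libraries and 2201 to 2324 CPM in control libraries, and of the 10 genes 4 were called higher (cpx, nrv3, Syt1 and nSyb) and 1 lower (elav), with a list median of 0.22. Summed glial markers were at 502 to 528 CPM in mutant libraries and 450 to 468 CPM in control libraries, with a list median of -0.06. Of its 8 genes Eaat1 and alrm were called higher, with log2 fold changes of 1.08 and 0.29, and the early glial switch gcm lower (-0.78). Those of gcm2 (-0.68), repo (-0.21) and wrapper (-0.14) were negative and those of moody (0.10) and Gli (0.02) positive, and none of these was called. Summed mesoderm and muscle markers were at 17099 to 17396 CPM in mutant libraries and 13879 to 15405 CPM in control libraries, with a list median of -0.03. That sum was almost all from the muscle genes Act57B (10562 CPM in mutant and 8929 CPM in control embryos) and Mhc (6494 CPM in mutant and 5496 CPM in control embryos), both called higher. Of the 4 others twi was called lower (-0.56), and tin (-0.30), bap (-0.03) and Mef2 (-0.03) were not called. Sums overlapped between the lines for sensory organ markers (770.4 to 853 CPM in mutant and 844 to 858 CPM in control libraries), hemocyte markers (1614 to 1813 and 1605 to 1940.4 CPM in mutant and control libraries) and late embryo cuticle genes (4121 to 4561 and 3664 to 4196 CPM in mutant and control libraries). Of the 15 marker genes called, cpx, Eaat1, Ddc and kkv kept the call under all 14 alternatives, nSyb lost it at least without mutant collection 1, and the other 10 lost it under 1 to 7 of them. The exons of elav share 2994 bp with lncRNA:enrr on the same strand. No marker of these 6 lists was at 0 in all libraries, and 1 of 6 sensory organ genes (nompA, lower), 0 of 4 hemocyte genes and 3 of 8 cuticle genes were called. The sensory organ and hemocyte shares lay below the 22.3% of all tested genes. Of the cuticle genes, Ddc, for the dopa decarboxylase used in cuticle hardening, was at 84.9 ± 30.5 CPM in mutant embryos and 31.9 ± 5.85 CPM in control embryos (SD, n = 3 each), which gave a log2 fold change of 1.41 (edgeR adjusted p 0.00523). The tyrosine hydroxylase gene ple and the chitin synthase gene kkv were called lower, with log2 fold changes of -0.44 and -0.34. The most abundant hemocyte markers, Ppn and Pxn, were at 1452 and 179 CPM in mutant embryos and at 1493 and 203 CPM in control embryos. The hemocyte markers srp and Hml went the other way, with log2 fold changes of 0.21 and 1.01, and were not called (edgeR adjusted p 0.0855 and 0.0823). The list median was 0.09. Without control collection 1, Pxn was called lower (log2 fold change -0.25, edgeR adjusted p 0.0351) and 1 hemocyte gene was called higher. With DESeq2's test on all libraries 1 was called higher and 0 lower. The part of these differences in the lower neuroblast transcripts was not tested.

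The authors' deposited table, made by limma-voom, gives its log2 fold change as control over mutant, so a positive value there means lower in mutant embryos. In the authors' deposited table the values were 0.53 for mira (adjusted p 0.00193), 0.53 for sna (0.0170), 0.53 for wor (0.0275) and 0.33 for pros (0.0226). The same 4 genes passed its threshold, where the authors' deposited table has 22.6% of all genes called and 8.62% called lower in mutant embryos. For sc the authors' deposited table gives 1.22 with an adjusted p of 0.0737, and for l(1)sc the authors' deposited table gives 1.42 with an adjusted p of 0.201.

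**Figure D5:**
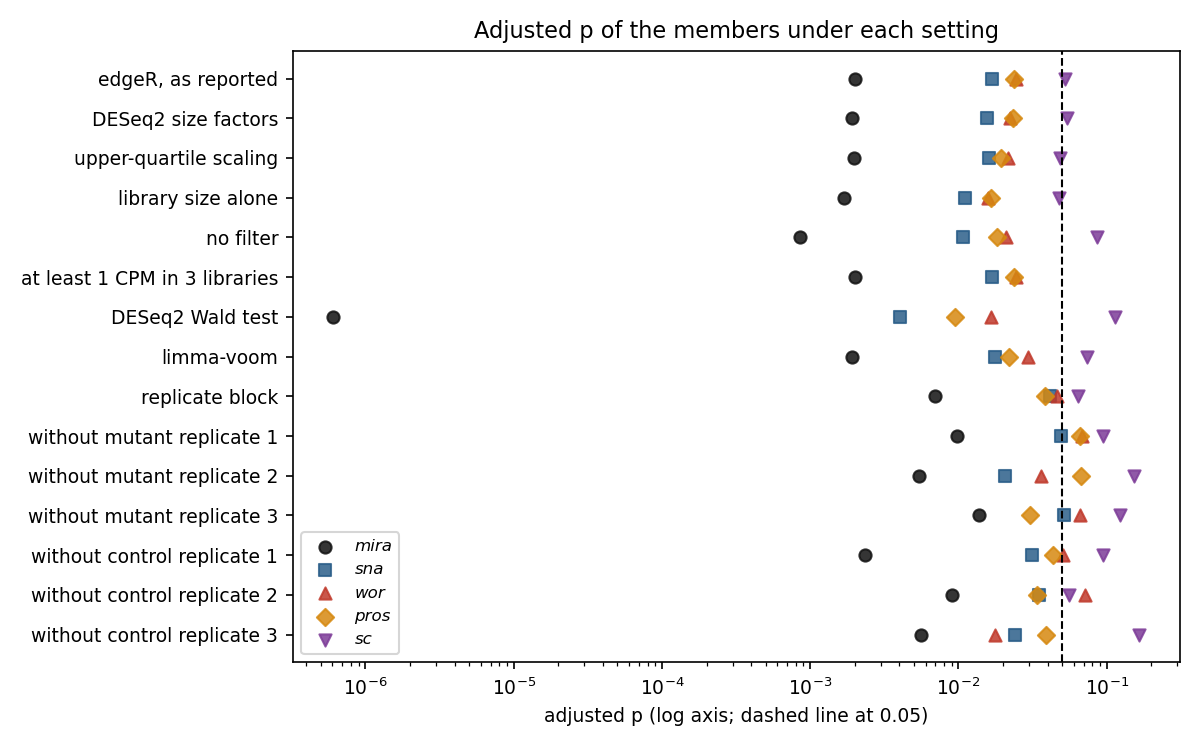
Adjusted p (horizontal axis, log scale) of 5 members under the reported edgeR fit and 14 alternatives (1 line each), with a dashed line at 0.05. Points of mira stay left of the line throughout, points of wor, sna and pros cross it in some of the fits without 1 library, and points of sc lie left of it with upper-quartile scaling and library size alone.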

How the data were processed

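RNA of whole embryos was sequenced from one end after poly(A) selection with a directional kit, 100 ng of input RNA and 12 PCR cycles, per the labels' protocols. Read counts per gene were deposited as whole numbers, without normalisation, with a limma-voom table that holds log2 CPM values per library, the log2 ratio of control to mutant, limma scores (t statistic and log-odds), p-values and adjusted p-values. TopHat2 2.1.1, Bowtie2 2.3.4.0, edgeR 3.14.0 and limma 3.28.21 are named, without roles, per the submitters' processing notes. The counting tool, genome build and strand setting are not given in the sources used here. Counts in both tables were checked and are equal, and 0 columns were left unmatched.

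Genes were filtered with filterByExpr (minimum count 10, minimum total 15), scaled by TMM and tested with edgeR 4.0.16 (quasi-likelihood test, two-sided, R 4.3.3) between 3 mutant and 3 control collections, Benjamini-Hochberg over 10526 genes, threshold 0.05. A standard error is the log2 fold change divided by the square root of the F statistic, and 95% intervals use the fit's degrees of freedom. Collections are separate per the labels, and reads carry no molecular identifiers, so limits of detection cover counting error only. Levels per kb use summed exons of the Ensembl annotation, in which 17362 of 17493 identifiers were found and 47 more by symbol (esg among these). Correlations used log2(CPM + 0.5). The code was tested on simulated counts.

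The members and lists were chosen with earlier results of these data known. Besides all members, genes named from a list are up to 4 called genes with the largest change and no overlap between lines, or, where none was called, the 2 most abundant. Further genes named as not called, and lncRNA:yar, CG43181, Cyp4g1, ebo, nSyb, cato and scrt, were chosen after their values were seen. Alternatives were other scalings, other filters, DESeq2 1.42.0, limma-voom (limma 3.58.1), the replicate number as a block and leaving out each library. Sequences were not used here.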

Additional observations from a re-analysis of the deposited data

How the results depend on the processing

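For the 9 tested members, 113 of 124 estimates under the alternatives kept the reported direction and side of the threshold. The exceptions among settings with all libraries were sc, past the threshold with upper-quartile scaling (log2 fold change -1.31) and library size alone (-1.32). The others came from leaving out 1 library. Over all alternatives the estimates ran from -0.66 to -0.48 for wor, from -0.62 to -0.45 for sna and from -0.41 to -0.27 for pros. They ran from -0.58 to -0.51 for mira, from -2.46 to -0.29 for l(1)sc, and from -0.031, without mutant collection 1, to 0.33 for dpn. In the fits without 1 library, the number of members called ran from 2 to 4, against 4. It was 2 without mutant collection 1 and without mutant collection 3. Without mutant collection 2 it was 4, but these were l(1)sc, wor, sna and mira. Of the fits without 1 library, only that without control collection 3 called all 4 reported members. In these fits the number of genes called over the whole table ran from 1295 to 2146, against 2350, with 838 to 1415 higher (1437 reported) and 457 to 738 lower (913 reported). Counts moved by over 1.5 times without mutant collection 1, mutant collection 3 or control collection 2. All fits without 1 library have fewer libraries, and the cause of these moves was not tested.

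With the replicate number as a block, 4 members (wor, sna, pros and mira) and 1994 genes were called, and the block changed no call of a member. Deviations of equally numbered libraries had correlations of -0.01, -0.02 and 0.01, within the -0.12 to 0.14 of unequally numbered ones. With 3 libraries per line these values cannot decide whether equally numbered libraries share more than a number. For the list genes named by size of change or abundance, 385 of 462 estimates kept direction and side and 75 lost the call. Among these estimates 1 (Pxn without control collection 1) gained the call. Ppn, a hemocyte marker that was not called, changed sign without control collection 3 (0.036, lowest -0.10 without control collection 1). The filter of 1 CPM in 3 libraries removes sc and l(1)sc, which have no value there. At 3 counts a library resolves about 0.153 to 0.236 CPM, which limits ac, sc and l(1)sc.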
